A study of Mus musculus with 13 samples.

Results

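Striatal projection neuron genes were read out in whole-hemisphere RNA of 13 male C3HeB/FeJ mice. The genes are Drd1, Drd2, Adora2a, Ppp1r1b, Rgs9, Penk, Tac1, Pde10a and Adcy5, and every probe set whose single gene symbol is one of them was taken. This gave 19 probe sets of 8 genes, out of 45037 probe sets in all and 18193 genes with a single symbol. The probe annotation used here lists no probe set for Adora2a, which was not analysed here. Per the labels, 6 mice were fed ad libitum for 6 months on pellets with 1% creatine, and 7 mice received pellets of the same calories without it. Feeding began at 10 to 12 weeks of age, all mice carried the same strain background, and no transgene or further agent is labelled. Each array holds RNA of 1 mouse and is labelled a biological replicate. The comparison asks which transcripts of the brain differ after long creatine feeding.

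Projection neurons make up most neurons of the striatum, the input nucleus of the basal ganglia, and use GABA as their transmitter. Those of the direct pathway carry the dopamine receptor Drd1 and make substance P from Tac1. Those of the indirect pathway carry Drd2 and the adenosine receptor Adora2a and make enkephalin from Penk. In both, dopamine acts on cAMP: adenylyl cyclase 5 makes it, phosphodiesterase 10A breaks it down, and the phosphatase inhibitor DARPP-32, encoded by Ppp1r1b, passes the signal on. Rgs9 shortens signals of inhibitory G proteins, among them those of Drd2.

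The striatum is 1 of many regions in a hemisphere, so in these bulk samples fewer projection neurons and less RNA per neuron cannot be told apart. The defining markers were present: at the brightest probe set of each gene, all 8 genes lay above the array median in all 13 mice. Over all member probe sets this held for 14 of 19. The other 5, which are 2 of Adcy5, 2 of Rgs9 and 1 of Tac1, had a mean below that of the middle probe set of the array and are called dim. Values are intensities on a linear scale, with array medians from 37 to 45, and differences are given on the scale of log2(intensity + 16). The brightest probe set of a gene is the one with the highest mean over the 13 arrays.

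Markers of other regions varied between mice. The summed intensity of 10 cerebellar markers ran from 1910 in untreated mouse 3 to 15997 in untreated mouse 2, an 8.38-fold range. The brightest of the 10, Calb1, ran from 1485 to 3022 in untreated and from 2110 to 2843 in creatine-fed mice. It thus makes up most of the lowest sum. In untreated mouse 3 the granule cell genes Gabra6 and Cbln3 read 22 and 18 and the Purkinje cell gene Pcp2 read 27, all under the array median. These mice were the lowest and the highest in this measure, so results that rest on them are also given without both. Creatine-fed mouse 4, the next lowest at 5227, stays in those values.

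Promoter windows are shown for the pair of genes that varied together most closely across mice, Drd1 and Adcy5, and for Tac1, which varied less with them. They span 250 bases before to 50 after a gene start and come from RefSeq on build GRCm38.p6. Capitals mark the GC box GGGCGG or its complement CCGCCC, and TGACG or its complement CGTCA, the core of the cAMP response element. Drd1 has 2 annotated starts, at chr13:54054731-54055030 and chr13:54055609-54055908, both on the minus strand. Adcy5 lies at chr16:35154614-35154913 and Tac1 at chr6:7554811-7555110, both on the plus strand.

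Drd1, first window: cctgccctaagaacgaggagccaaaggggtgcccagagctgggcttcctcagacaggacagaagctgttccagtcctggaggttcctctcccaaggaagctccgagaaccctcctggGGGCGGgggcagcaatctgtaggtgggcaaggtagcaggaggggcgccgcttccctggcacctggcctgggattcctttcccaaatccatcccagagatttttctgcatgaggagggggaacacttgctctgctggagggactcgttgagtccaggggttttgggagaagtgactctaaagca
Drd1, second window: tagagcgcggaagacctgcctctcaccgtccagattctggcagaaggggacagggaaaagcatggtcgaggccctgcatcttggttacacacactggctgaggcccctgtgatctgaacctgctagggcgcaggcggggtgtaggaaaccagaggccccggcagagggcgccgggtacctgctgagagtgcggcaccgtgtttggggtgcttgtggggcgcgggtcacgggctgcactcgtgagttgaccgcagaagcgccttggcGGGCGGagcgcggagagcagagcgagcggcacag
Adcy5: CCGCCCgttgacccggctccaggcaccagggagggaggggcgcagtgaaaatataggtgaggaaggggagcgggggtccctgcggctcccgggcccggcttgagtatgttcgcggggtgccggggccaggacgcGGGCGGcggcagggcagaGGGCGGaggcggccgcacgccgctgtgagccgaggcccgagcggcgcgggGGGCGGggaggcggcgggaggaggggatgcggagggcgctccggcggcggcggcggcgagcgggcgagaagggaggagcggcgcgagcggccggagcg
Tac1: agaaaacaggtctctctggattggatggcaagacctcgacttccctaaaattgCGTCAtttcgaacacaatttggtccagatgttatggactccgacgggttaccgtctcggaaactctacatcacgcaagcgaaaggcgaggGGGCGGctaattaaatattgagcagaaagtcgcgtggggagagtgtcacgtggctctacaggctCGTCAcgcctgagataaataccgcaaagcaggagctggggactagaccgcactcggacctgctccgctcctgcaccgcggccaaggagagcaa

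The GC box stood in all 8 windows found for 6 of the genes (Drd1, Drd2, Rgs9, Tac1, Pde10a, Adcy5), against 35.7% of all 32851 windows of this length, and Adcy5 had 4 of them. The core was in 1 of the 8 windows, that of Tac1, where it occurred 2 times, and in 20.8% of all windows. The full element TGACGTCA was in none of the 8 and in 1.79% of all. The GC content was 59.3% and 65.7% for Drd1, 79.0% for Adcy5 and 54.0% for Tac1, beside a median of 52.7% over all windows. It was 70.3% for Drd2, 60.3% for Rgs9, and 71.3% and 56.7% for Pde10a, so all 8 windows lay above that median. The shares over all windows were not matched for GC content. Both strands were searched, the 32851 windows leave out 1 chromosome, and a match describes letters only.

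None of the 19 probe sets passed between creatine-fed and untreated mice (limma with Benjamini-Hochberg adjustment over all 45037 probe sets), where 0.00888% of all probe sets passed. The smallest adjusted p among the 19 was 0.241. At an unadjusted p under 0.05, 4 of the 19 differed, all higher in creatine-fed mice, which is 21.1% beside 11.9% of all probe sets. In none of the 19 did the groups fail to overlap, beside 0.56% of all. Over the 8 brightest probe sets, 4 means were higher and 4 lower, with a median log2 difference of 0.03, beside -0.03 over all probe sets. That median was 0.08 after centring each array on its median and 0.01 after quantile normalization, beside 0.02 and 0.00 over all probe sets. Centring also moved the count of higher means from 4 to 5 of the 8, and over the whole array from 19024 to 25531 of 45037.

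**Figure D1:**
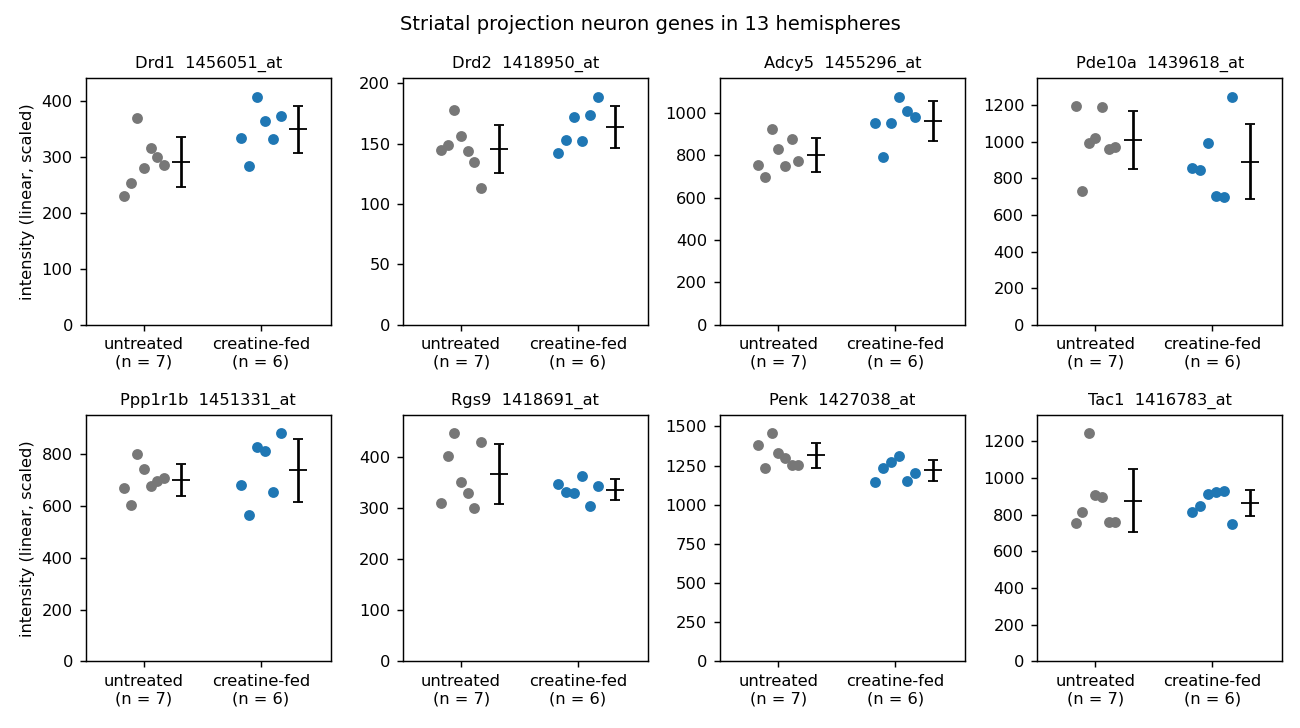
Intensity (linear scale, y axis from 0) of the brightest probe set of each of 8 striatal genes in 7 untreated (grey) and 6 creatine-fed (blue) mice; points are mice, the bar beside them is mean ± SD. The groups overlap in every panel; for Adcy5, 5 of 6 creatine-fed mice lie above all untreated mice, and untreated mouse 3 stands above the rest for Tac1 at 1243.

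Drd1, the receptor through which dopamine raises cAMP, read lowest 230, median 285 and highest 369 in untreated mice at 1456051_at, and 284, 349.5 and 408 in creatine-fed mice. The creatine-fed mice lay in the upper part of the range, 5 of 6 above the untreated mean, and 2 above every untreated mouse. The means were 349 ± 42.6 (SD, n = 6) and 291 ± 44.8 (SD, n = 7), a log2 difference of 0.26 ± 0.11 (SE), with adjusted p = 0.36 by limma and 0.0367 unadjusted by an exact permutation test, 2-sided. The second probe set of Drd1, 1455629_at, read 272.5 ± 27.8 against 259 ± 32.1, a log2 difference of 0.07 (95% interval -0.12 to 0.27). The 2 probe sets followed each other across the 13 mice with r = 0.75.

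Drd2, the receptor that lowers cAMP, was the dimmest of the 8 genes' brightest probe sets. It read 113, 145 and 178 (lowest, median, highest) in untreated mice and 142, 162.5 and 189 in creatine-fed mice. Only the highest creatine-fed mouse exceeded all untreated mice, and the lowest value came from untreated mouse 7. The log2 difference was 0.16 ± 0.09 (SE, adjusted p = 0.547 by limma), and 0.10 without untreated mouse 7.

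Adcy5, the main adenylyl cyclase of the striatum, had the smallest p among the brightest probe sets. At 1455296_at it read 695, 771 and 924 in untreated mice and 793, 966.5 and 1076 in creatine-fed mice. Here 5 of 6 creatine-fed mice lay above every untreated mouse, and creatine-fed mouse 2, at 793, lay among them. The means were 960 ± 94.1 (SD, n = 6) and 799 ± 80.2 (SD, n = 7), a log2 difference of 0.26 ± 0.09 (SE), with adjusted p = 0.257 by limma and 0.0117 unadjusted by exact permutation, 2-sided. It was 0.26 without untreated mice 2 and 3 and 0.05 with all 4 probe sets averaged, and the adjusted p ran from 0.103 to 0.844 over the alternative settings. The other probe set of Adcy5 above the array medians, 1447696_x_at, read 201.5 ± 39.8 against 185 ± 34.5 (log2 difference 0.11). It followed the brightest across mice (r = 0.69). The pair below the medians, 1443080_at and 1439829_at, differed by -0.12 and -0.05. They did not follow the brightest (r = -0.44 and -0.31).

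Pde10a, which degrades cAMP and cGMP in these neurons, gave different readings at its 5 probe sets. The brightest, 1439618_at, read 731, 991 and 1194 in untreated mice and 700, 852 and 1247 in creatine-fed mice. Creatine-fed mice held both the highest value and the 2 lowest, and the log2 difference was -0.19 (95% interval -0.49 to 0.12). It was -0.29 without creatine-fed mouse 6, and -0.13 without creatine-fed mouse 4 or 5. At 1419389_at the order was the other way: 103, 139 and 190 in untreated and 144, 199.5 and 249 in creatine-fed mice, with 4 of 6 above every untreated mouse. This was the smallest p among the 19, with a log2 difference of 0.45 ± 0.14 (SE, adjusted p = 0.241 by limma; exact permutation p = 0.0128, unadjusted). The remaining probe sets differed by 0.07 at 1458499_at, -0.08 at 1419390_at and -0.08 at 1432490_a_at. Pearson's r across the mice between the 10 pairs of Pde10a probe sets ran from -0.08 to 0.77, so not all of them followed each other. With group means removed it ran from 0.12 to 0.85. Whether they report a single level was not tested. No direction is given for the gene.

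Ppp1r1b, whose product DARPP-32 inhibits protein phosphatase 1 once phosphorylated by protein kinase A, read 603, 698 and 801 in untreated mice and 565, 746 and 880 in creatine-fed mice. Creatine-fed mice spanned the untreated range on both sides. The log2 difference was 0.06 (95% interval -0.16 to 0.28). Single mice moved it: it was 0.01 without creatine-fed mouse 6, 0.03 without creatine-fed mouse 3 or 4 or untreated mouse 2, and 0.13 without creatine-fed mouse 2. It was 0.09 without creatine-fed mouse 5, 0.10 without untreated mouse 3 and 0.11 with arrays centred.

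Rgs9 read 301, 351 and 446 in untreated and 303, 337.5 and 362 in creatine-fed mice at 1418691_at. The creatine-fed mice lay close together, all inside the untreated range, and the log2 difference was -0.11 (95% interval -0.32 to 0.10). It was -0.06 without untreated mouse 3, -0.02 without untreated mice 2 and 3, -0.07 without untreated mouse 7 and -0.06 with arrays centred. At the much dimmer 1439635_at it read 19, 39 and 46 against 42, 45.5 and 60, a log2 difference of 0.34 ± 0.13 (SE, adjusted p = 0.326 by limma). This probe set lies near the array medians, above them in 7 of 13 arrays. The dimmest, 1426033_at, differed by -0.15, so the 3 probe sets of Rgs9 had different signs.

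**Figure D2:**
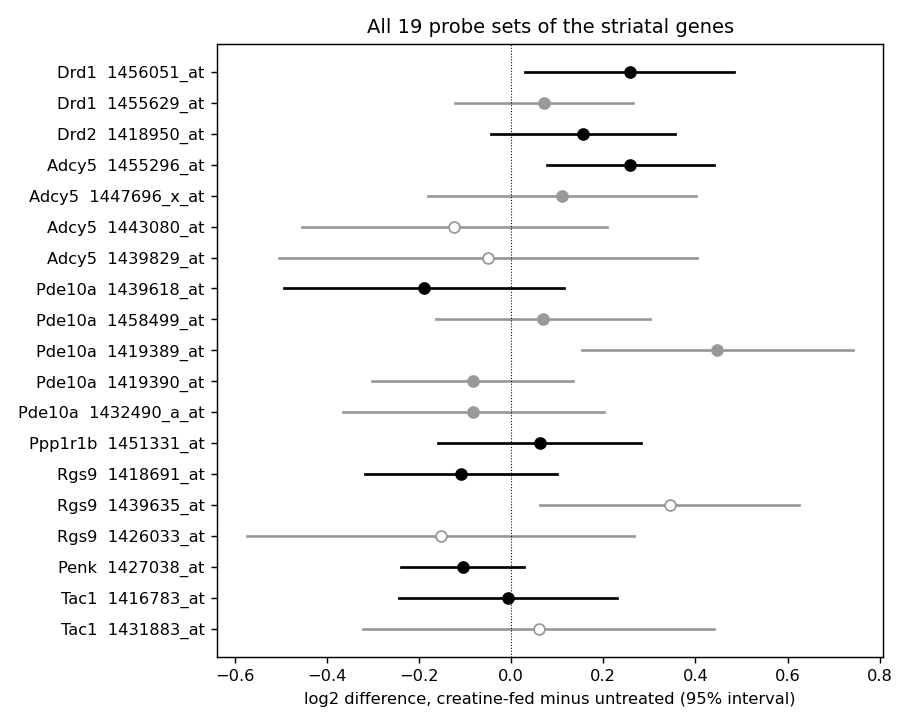
Log2 difference (creatine-fed minus untreated, x axis) with its 95% interval for all 19 probe sets of 8 genes; black marks the brightest probe set of each gene, grey the others, and open circles the dim ones. Intervals of 4 probe sets, 1 each of Drd1, Adcy5, Pde10a and Rgs9, lie above 0, and none passed after adjustment over all probe sets.

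Penk, the precursor of enkephalin, was the brightest and the least variable of the 8, with an SD of 0.08 log2 units within groups. It read 1236, 1298 and 1456 in untreated mice and 1144, 1219.5 and 1313 in creatine-fed mice. Every creatine-fed mouse was under the mean of the untreated ones, and 4 were under all of them. The means were 1221 ± 66.8 (SD, n = 6) and 1315 ± 80.1 (SD, n = 7), a log2 difference of -0.11 ± 0.06 (SE), with adjusted p = 0.542 by limma and 0.0408 unadjusted by exact permutation, 2-sided. It was -0.05 with arrays centred. Limma draws each variance towards that of all probe sets, which widens the error of a steady probe set such as this one.

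Tac1, the precursor of substance P, read 754, 817 and 1243 in untreated mice and 750, 879 and 931 in creatine-fed mice at 1416783_at. The highest value was that of untreated mouse 3, and the next untreated mouse read 906. The log2 difference was -0.01 (95% interval -0.24 to 0.23), 0.08 without untreated mouse 3, and 0.05 with arrays centred on their medians. The second probe set, 1431883_at, was dim at 17.3 ± 12.1 against 14.7 ± 4.11 and did not follow the first (r = -0.02).

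In all, 3 of the 8 brightest probe sets (Drd1, Adcy5, Penk) had an exact permutation p under 0.05, unadjusted, which 12% of all probe sets had, and none passed over the whole array. Neither pathway's pair of genes shared a clear direction: Drd1 and Drd2 read higher, Penk lower and Tac1 level. The mean of Drd2 and Penk minus that of Drd1 and Tac1, within each array and on the log2 scale, read -0.38, -0.18 and 0.12 (lowest, median, highest) in untreated mice and -0.35, -0.31 and -0.13 in creatine-fed mice. The creatine-fed mice lay inside the untreated range. Only the position of a mouse in that range can be read from this measure, since probe sets differ in their response. The group means differed by -0.10, beside SDs of 0.10 in creatine-fed and 0.16 in untreated mice, by -0.05 without untreated mouse 1, and by -0.17 with Pdyn, Chrm4 and Gpr6 added to the pathways. It was not tested, and Adora2a is not part of it.

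Across the 13 mice the 8 genes varied partly together. Of 28 pairs at their brightest probe sets, 20 had a positive Pearson's r, with a median of 0.31 and a range from -0.26 to 0.81. The mean r was 0.24, beside 0.00 over all pairs of the 22518 probe sets that were not dim. An r above 0.5 was seen in 6 of the 28 (21.4%), beside 6.57% of those pairs. After removal of each group's mean the mean r was 0.33. It was 0.21 within creatine-fed and 0.41 within untreated mice, and 18 pairs were positive in both groups.

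**Figure D3:**
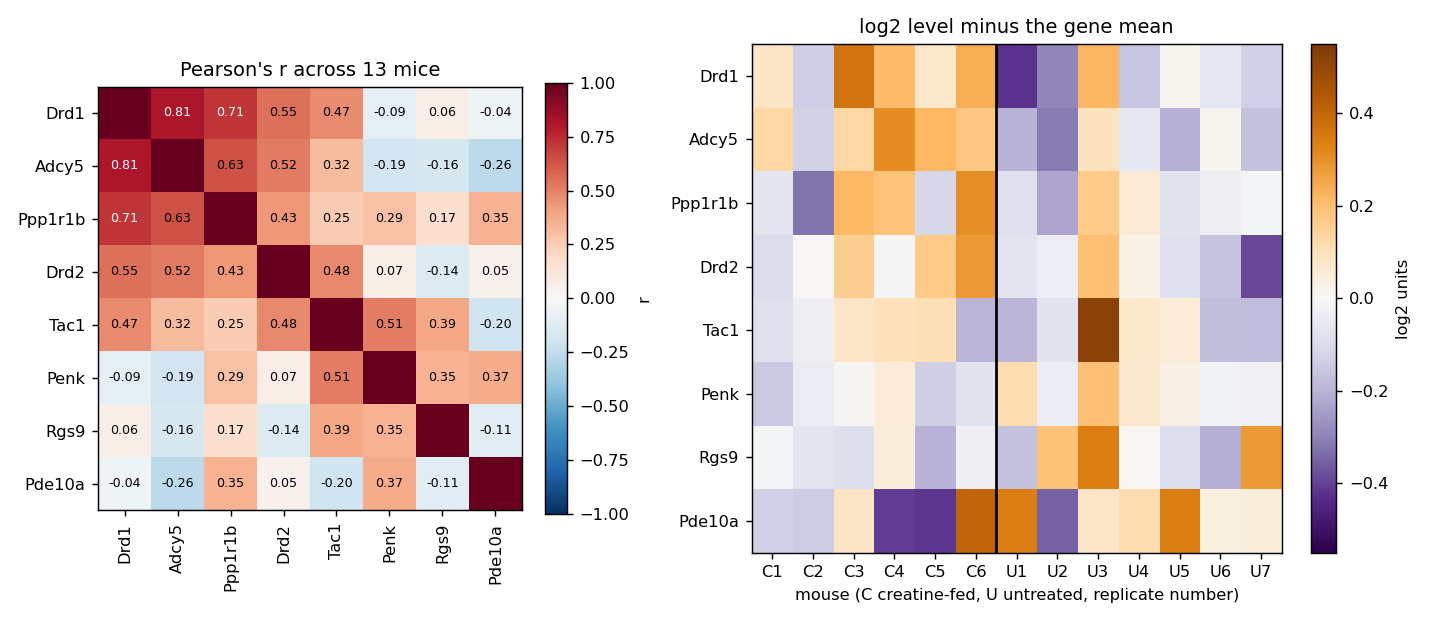
Left, Pearson's r across 13 mice between the brightest probe sets of 8 genes (colour and number). Right, log2 level of each gene in each mouse minus the gene's mean over all mice. Drd1, Adcy5, Ppp1r1b and Drd2 have r from 0.43 to 0.81 among themselves, a grouping chosen after the values were seen, and untreated mouse 3 is above the mean for all 8 genes.

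The closest pair was Drd1 and Adcy5, with r = 0.81 and rho = 0.74 over 13 mice (permutation p = 0.0012 and 0.00528). Adjusted over the 28 pairs this was 0.0336 for r and 0.126 for rho, so it passed by Pearson's r only. The r was 0.66 within creatine-fed and 0.71 within untreated mice, 0.84 without the 2 mice farthest from the median of Drd1, and at least 0.77 without any 1 mouse. Drd1 with Ppp1r1b gave r = 0.71 and rho = 0.71 (permutation p = 0.00702 and 0.00902, adjusted 0.0983 and 0.126), and 0.74 without the 2 farthest mice. Within groups it was 0.93 and 0.71 in creatine-fed and untreated mice. Ppp1r1b with Adcy5 gave r = 0.63 and rho = 0.53 (permutation p = 0.0211 and 0.063, adjusted 0.197 and 0.538). Drd1 with Drd2 gave r = 0.55 and rho = 0.48 (permutation p = 0.0478 and 0.102, adjusted 0.335 and 0.538). The remaining pairs of these 4 genes were Drd2 with Adcy5 at r = 0.52 and Drd2 with Ppp1r1b at 0.43, the latter below Penk with Tac1 (0.51), Drd2 with Tac1 (0.48) and Drd1 with Tac1 (0.47). Of all 28 pairs, 1 passed.

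The neuropeptide genes tied to each other less firmly. Penk and Tac1 had r = 0.51 and rho = 0.29 over 13 mice (permutation p = 0.0805 and 0.333, adjusted 0.356 and 0.657). Without untreated mouse 3 that r was 0.03. Tac1 with Rgs9 went from 0.39 to -0.16 without the same mouse. Pde10a at its brightest probe set had r between -0.26 and 0.37 with the other genes.

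The mean of the 8 genes, each centred on its own mean, gives 1 value a mouse. It was highest in untreated mouse 3 (0.23 log2 units, all 8 genes above their mean) and lowest in untreated mouse 2 (-0.14, 1 gene above). Creatine-fed mice 6 and 3 followed the first at 0.14 and 0.12, and creatine-fed mouse 2 the second at -0.11. Both ends of the range thus came from untreated mice, and the groups overlapped. Without untreated mouse 3 the mean r of the 28 pairs fell to 0.10, and without untreated mice 2 and 3 it was 0.09, with 18 pairs still positive. Drd1 with Adcy5 kept r = 0.77 without both.

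Markers of other regions moved with this mean. Against the summed cerebellar markers, r was -0.77 and rho -0.68 over 13 mice, -0.51 within creatine-fed and -0.93 within untreated mice, and -0.48 without untreated mice 2 and 3. Against the mean of the log2 values of the 10 markers, where Calb1 weighs no more than the others, r was -0.76. The cerebellar sum ran from 5227 to 12395 in creatine-fed and from 1910 to 15997 in untreated mice, over 10 of 10 markers. These are descriptions of arrays that each share 1 scaling. Against 13 of 15 cerebral cortex markers, whose sum ran from 7261 to 9239 in creatine-fed and from 6447 to 8031 in untreated mice, r was 0.72 (0.69 without both mice). With the cerebellar mean removed by regression, an alternative added after the data were seen, the mean r of the 28 pairs was 0.03, with 14 positive, and Drd1 with Adcy5 had 0.76.

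**Figure D4:**
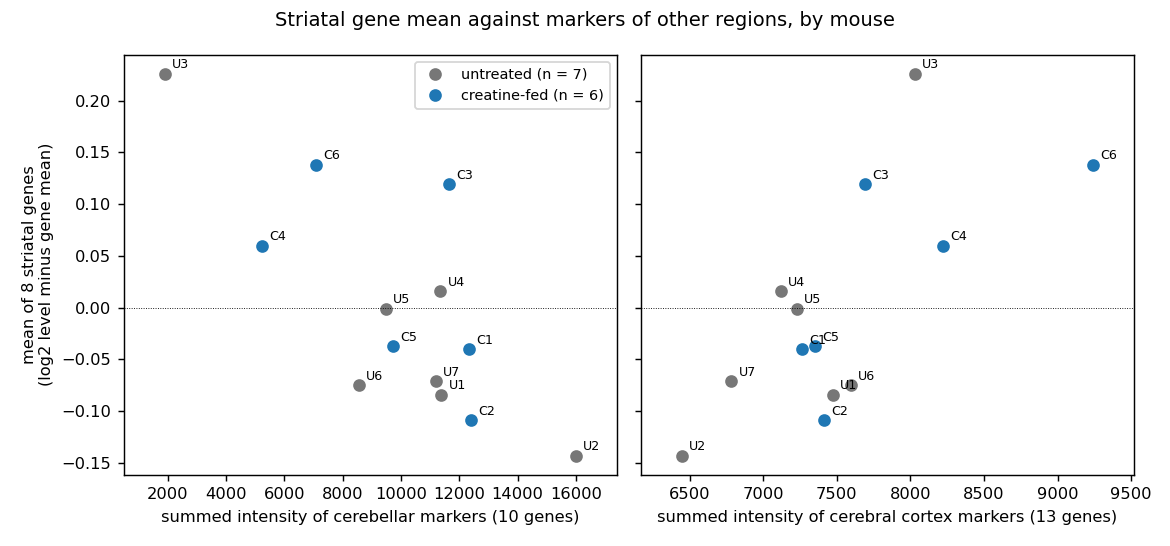
Mean of the 8 striatal genes (log2 level minus gene mean, y axis) against the summed intensity of 10 cerebellar (left) and 13 cerebral cortex markers (right, x axes not starting at 0) in each of 13 mice; C creatine-fed, U untreated, with the replicate number. Untreated mouse 3 has the lowest cerebellar sum, 1910, and the highest striatal mean, 0.23, and untreated mouse 2 is at the other end of both.

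Other lists also moved with the mean. Summed thalamic markers (9 of 9, from 2720 to 3953 in creatine-fed and 2478 to 4818 in untreated mice) had r = -0.75 (-0.43 without untreated mice 2 and 3). Zic1, at 1827 and 1929 in creatine-fed and untreated mice, was the brightest of them, and the mean of the log2 values of all 9 had r = -0.36. By their sums, hippocampal markers (9 of 9, 2998 to 3674 and 2527 to 3680) had r = -0.72 (-0.31), and markers of striatal and other interneurons (9 of 9, 4472 to 6020 and 4572 to 6314) had -0.83 (-0.71); by mean log2 values these were -0.63 and -0.62. Pvalb, Neurod1 and Zic1, among the brightest of these lists, are also expressed in the cerebellum. Chat and Slc5a7, which define the cholinergic interneurons of the striatum, were below the median of every array. Astrocyte markers (8 of 8, 12299 to 13704 and 12988 to 15805) had r = -0.69 (-0.60). Aldoc, at 5871 and 6689 in creatine-fed and untreated mice, was the brightest of them, and by mean log2 values r was -0.71. Olfactory bulb markers (8 of 8, 984 to 1301 and 1011 to 1946) had r = 0.61, and 0.21 without untreated mice 2 and 3. Pituitary hormone genes were low, their 6 measured genes summing to at most 78, and Prl, Cga, Tshb, Lhb and Fshb were below the median of every array. The 3'/5' ratio of control transcripts, a sign of RNA quality, had r = -0.12 with the mean, and the array median -0.51. The part of tissue content or scaling in the co-variation was not tested beyond these values.

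Single genes were set against the cerebellar mean as well, 8 relations in all. Tac1 had r = -0.77 and rho = -0.36 (permutation p = 0.0223 and 0.222, adjusted 0.139 and 0.296). It was 0.14 without creatine-fed mouse 4 and untreated mouse 3, the farthest from the median, so the relation rests on those mice. Drd1 had r = -0.49 and rho = -0.58 (permutation p = 0.0846 and 0.0433, adjusted 0.169 and 0.173), and -0.48 without those mice. None of the 8 passed. With the cerebellar mean as a covariate, the log2 differences between groups were 0.28 for Adcy5 (adjusted p = 0.17 by limma), 0.28 for Drd1 (0.226) and -0.10 for Penk (0.516), and 0 of the 19 probe sets passed.

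The genes most like this mean, among 19671 other probe sets that were not dim and had 1 symbol, were Kcnip2, Gng7, Kif17, Gse1, Cux2, Rragd, Plxna2, Gcnt2, Pak6 and Abhd17a, with r from 0.87 to 0.91 over 13 mice. An r above 0.7 was reached by 1.73% of these probe sets. Kcnip2, a subunit of A-type potassium channels, had r = 0.91 (rho 0.89) and 0.91 without untreated mice 2 and 3, but its other probe sets ran from 0.09 to 0.81. Gng7, a G protein gamma subunit abundant in the striatum, had r = 0.90 (rho 0.90) and 0.81 without those mice. Cux2, a transcription factor of upper cortical layers, had r = 0.87 at 1450181_at and at its other probe sets from -0.03 to 0.54.

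Each gene had its own nearest neighbour among the same probe sets. For Drd1 it was Foxp1, a transcription factor of projection neurons and cortex, with r = 0.93 at 1421142_s_at over 13 mice, while its 7 other probe sets ran from -0.17 to 0.76. For Adcy5 it was Snn (r = 0.95), for Tac1 Nat8l, the enzyme that makes N-acetylaspartate (0.94), and for Drd2 Usp27x (0.92). Cntnap5a was nearest to Ppp1r1b (0.92), Arhgap27 to Rgs9 (0.88), Nelfe to Pde10a (0.86) and Dzip1 to Penk (0.85). No neighbour was shared by 2 genes. A best match among this many probe sets has a high r by selection.

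Other genes of projection neurons were taken from a list of 36, of which 33 were analysed here. None of the 33 passed (smallest adjusted p = 0.243, limma), and 4 had an unadjusted p under 0.05, 2 higher and 2 lower, which is 12.1% beside 11.9% of all probe sets. The median log2 difference was 0.02, beside -0.03 over all. Oprk1, the kappa opioid receptor, read 89.0 ± 9.65 against 70.7 ± 9.21, a log2 difference of 0.28 with all 6 creatine-fed mice above the untreated mean. Rxrg, a retinoid receptor, read 109 ± 24.0 against 86.6 ± 14.2 (0.28). Oprd1 and the dopamine receptor Drd3 were lower at dim probe sets, 14.8 ± 1.94 against 20.3 ± 4.35 and 5.5 ± 3.45 against 13.9 ± 8.40.

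The remaining named members of that list did not pass. Pdyn, the dynorphin precursor of direct pathway neurons, read 77 ± 12.8 against 66.6 ± 16.5 (log2 difference 0.18, adjusted p = 0.616, limma). Bcl11b, a transcription factor required for these neurons, read 605 ± 87.4 against 597 ± 99.5 (0.02), and the tyrosine phosphatase Ptpn5 read 599.5 ± 80.0 against 615 ± 38.0 (-0.04). Gad1, which makes GABA in all GABAergic neurons, read 3434 ± 355 against 3769 ± 194 (-0.14), and the transcription factor Foxp1 924 ± 124 against 819 ± 77.5 (0.17). Chrm4, a muscarinic receptor of direct pathway neurons, was below every array median, at 12.2 ± 7.03 against 6.14 ± 5.58.

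Several of these genes followed the mean of the 8. Of the 28 listed genes that were not dim, 22 had a positive r with it and 13 had an r above 0.5, which 9.0% of the 19671 probe sets reached. Without untreated mice 2 and 3 it was 10 of 28, beside 9.9%. The calcium-dependent phosphodiesterase Pde1b had r = 0.87 (0.76 without both mice), the orphan receptor Gpr6 0.83 (0.70), Foxp1 0.82 (0.88) and Bcl11b 0.76 (0.53). Gad1 had r = 0.00 and Pdyn 0.33. The lowest of the 28 were Ebf1 at -0.705 (-0.42 without both mice) and Cnr1 at -0.683 (-0.26). These are descriptions over 13 mice that differed in markers of other regions, on arrays that each share 1 scaling.

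The cAMP and G protein partners were taken from a list of 38 genes, all measured. None passed (smallest adjusted p = 0.215, limma), and 4 had an unadjusted p under 0.05, 3 higher and 1 lower, which is 10.5% beside 11.9% of all probe sets. Means of 29 of the 38 were higher in creatine-fed mice, with a median log2 difference of 0.04, beside 19024 of the 45037 probe sets. After centring it was 32 of 38, beside 25531 of all, and after quantile normalization 28 of 38, beside 21975. Rgs7, a relative of Rgs9 that also acts on inhibitory G proteins, read 799 ± 87.3 against 665 ± 24.4, a log2 difference of 0.25 ± 0.07 (SE, adjusted p = 0.215, limma) and above the untreated mean in 6 of 6 mice. Gnao1, the alpha subunit of the G protein Go, read 2302 ± 138 against 2006 ± 129 (0.20). Cdk5r1, the activator of the kinase Cdk5 that phosphorylates DARPP-32, read 1047 ± 76.4 against 911 ± 87.1 (0.20). Prkaca, from which the catalytic part of protein kinase A is made, read 825.5 ± 70.5 against 932 ± 70.1 (-0.17). Prkacb, the gene of another catalytic subunit, named after its values were seen, read 2630 ± 86.2 against 2480 ± 104 (0.08, adjusted p = 0.578, limma), with 6 of 6 creatine-fed mice above the untreated mean.

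For the G protein that couples Drd1 to adenylyl cyclase in the striatum the differences were near 0. Its alpha subunit Gnal read 939 ± 132 against 930 ± 61.3 (log2 difference 0.00, 95% interval -0.19 to 0.20) and its gamma subunit Gng7 466 ± 50.6 against 454 ± 78.7 (0.05, interval -0.19 to 0.28). Ppp1cb, a catalytic subunit of the phosphatase that DARPP-32 inhibits, read 2033 ± 62.0 against 2165 ± 54.5, a log2 difference of -0.09 with all 6 creatine-fed mice under the untreated mean (adjusted p = 0.53, limma; exact permutation p = 0.00291, unadjusted). Gnb5, the partner of Rgs9, read 1018 ± 56.4 against 940 ± 65.3 (0.11), with all 6 creatine-fed mice above the untreated mean and adjusted p = 0.523 by limma. The beta subunit Gnb1 followed the mean of the 8 striatal genes with r = 0.77, and Gnal with 0.47. Of the 38, 12 had an r above 0.5 with that mean, which 9.0% of the 19671 probe sets reached. Without untreated mice 2 and 3 it was 10, beside 9.9%. The r was positive for 30 of the 38, beside 50.1%. The lowest were Ppp1cc at -0.57 (-0.695 without both mice) and Adcy1 at -0.445 (0.428).

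Markers of dopaminergic neurons, whose axons reach the striatum while their cell bodies lie in the midbrain, had lower means with creatine for 8 of 8 genes, beside 26013 of all 45037 probe sets, with a median log2 difference of -0.26 and none called. Of these, Pitx3, Foxa2 and En1 were below the median of every array. Means were also lower for 9 of 9 hypothalamic markers (median -0.28), of which Ghrh, Hdc and Sim1 were below every array median. The same held for 7 of 8 olfactory bulb (-0.24), 6 of 7 oligodendrocyte (-0.17) and 7 of 8 astrocyte markers (-0.11), the last being 5 of 8 after centring. Means were higher for 12 of 13 cortex markers (0.07), and none of these markers was called. Their part in the differences of the striatal genes was not tested. The summed level of the dopaminergic markers ran from 941 to 1205 in creatine-fed and from 1152 to 1530 in untreated mice, and had r = -0.22 with the striatal mean.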

How the data were processed

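Total RNA of 1 brain hemisphere per mouse was labelled as biotin cRNA from 3 µg, per the labels' protocols. The deposited table holds 1 intensity per probe set and array in whole numbers on a linear scale. On every array the mean without the highest and lowest 2% was 150.05, so the intensities deposited by the authors have the form of a global scaling. The submitters' processing notes name RMA alone, which does not give such values. The tool used is not given in the sources used here.

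From 45101 probe sets, 64 controls were removed and none was filtered. After log2 of intensity + 16, limma 3.58.1 (lmFit, eBayes) in R 4.3.3 compared 6 creatine-fed with 7 untreated mice, 2-sided, without covariates, with Benjamini-Hochberg adjustment over 45037 probe sets and a threshold of 0.05. Exact permutation used all 1716 splits. Correlations had permutation p-values from 100000 resamples. Symbols came from the probe annotation, updated by Entrez ID for 34741 of 34945 probe sets with 1 symbol, while 932 had several and 9160 none listed. The number of arrays limits precision. P-values of group differences set them against the spread between these mice, and those of correlations come from shuffling values among the mice.

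Members and lists were chosen with earlier results of these data known. Named genes were all members, up to 6 of each pathway list by unadjusted p plus 7 fixed genes, the 2 brightest genes of a marker list where a result touches them, and genes most like the mean by r. Pde1b, Gpr6, Foxp1, Ebf1, Cnr1, Gnb1, Prkacb, Ppp1cc and Adcy1, and Gabra6, Cbln3 and Pcp2 among the markers, were named after their values were seen. The plan named 9 genes and 36 pairs; with Adora2a absent, 8 and 28 were used. Alternatives were testing only probe sets above the middle mean level, offsets of 1 and 50, quantile normalization, centring, trend and robust, the replicate number as a block, the 3'/5' ratio as a covariate averaging the probe sets of a gene, Pdyn, Chrm4 and Gpr6 added to the pathway balance, rank correlation, and leaving out each mouse. A cerebellar covariate and leaving out untreated mice 2 and 3 were added after the data were seen. The fit and the pair test were tested on simulated data. Figures used matplotlib 3.10.9 in Python 3.11.15.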

Additional observations from a re-analysis of the deposited data

Results flagged for a closer look

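Of 42 groups of mice examined for a member probe set, the mean of the 8 genes or the pathway balance, 2 had a mouse far from the others; chance gives about 1 in 20. Both were untreated mouse 3. It read 1243 for Tac1 at 1416783_at, where the next untreated mouse read 906, a gap of 0.634 of the group's range. Its mean of the 8 striatal genes was 0.226 log2 units, where the next was 0.016, a gap of 0.57 of the range. Tac1 is 1 of those 8 genes and had the largest deviation of them in this mouse, 0.52, so the 2 flags are not independent. The same mouse had the lowest sum of cerebellar markers, 1910. The part of tissue content in these values was not tested.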

How the results depend on the processing

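In each of the 23 alternatives, 0 of the 19 striatal probe sets and 0 of the 71 other striatal and cAMP genes passed. The alternative without dim probe sets tested only 14 of the 19, 28 of the 33 other striatal genes and all 38 cAMP genes. The count over all probe sets was 4 as reported, 138 among the 22518 probe sets above the middle mean level alone, 0 with an offset of 1, 36 with an offset of 50, 2 after quantile normalization, 161 with trend and robust, 0 without untreated mice 2 and 3 together, 3 with the cerebellar covariate, and 0 to 6 without any 1 mouse. It was 0 without creatine-fed replicate 3 or 5 or untreated replicate 2, 3, 4, 5 or 6, and 2 without untreated replicate 7. With the replicate number as a block it was 0. Deviations of same-numbered mice had r from -0.14 to 0.34, with the own number best in 1 of 6. The labels do not say what the number stands for, and these few values cannot show whether such samples share anything else.

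Adcy5, Drd1, Drd2 and Ppp1r1b stayed higher and Penk lower in creatine-fed mice in every alternative run. With all probe sets of a gene averaged, Pde10a turned to 0.032 and Rgs9 to 0.028. Tac1, at -0.006, turned to 0.045 after centring, 0.021 with the 3'/5' covariate and also with the cerebellar one, 0.027 with its probe sets averaged, 0.081 without untreated mice 2 and 3, and from -0.038 to 0.080 without any 1 mouse. Singly, these were 0.010 without creatine-fed replicate 1, 0.032 without 6, and 0.080, 0.005 and 0.002 without untreated replicate 3, 4 and 5. The mean r of the 28 pairs, 0.235, was 0.030 with the cerebellar mean removed, 0.381 after centring, 0.098 with probe sets averaged, and 0.096 to 0.271 without any 1 mouse; the cause was not tested. The pathway balance, -0.100, was -0.170 with Pdyn, Chrm4 and Gpr6 added and ran from -0.137 to -0.053 without any 1 mouse.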
